A study of Mus musculus with 6 samples.

Results

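The genes described here serve the peroxisome. They are 33 of the 54146 genes counted in mouse whole kidney by RNA sequencing. Of the 33, 12 are Pex genes, which build the organelle, and 21 code for enzymes and carriers that work in it. Members were matched by gene symbol in the count data, and all 33 were found. They were selected on measured values, namely the difference in counts between the labelled groups, so their folds and calls below describe them and support nothing further. The lowest count of any member in any library was 196, and all 33 passed the filter on low counts that left 17308 genes for testing.

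The study asked how mitochondrial damage in kidney tubules relates to chronic kidney disease. There were 3 KspCre Tfam f/f-labelled libraries and 3 labelled Tfam f/f, all from B6C3F1/J mice aged 12 weeks. Both groups carried floxed Tfam, the gene for mitochondrial transcription factor A, and the first also carried a Cre transgene driven by the Ksp-cadherin promoter, which is active in kidney tubule epithelium. The labels did not give the sex of the mice, and did not say that each library came from a separate animal, so p-values measure the spread between these libraries. Gene counts came to between 30348281 and 48899266 in KspCre Tfam f/f-labelled libraries and between 19024208 and 34821537 in Tfam f/f-labelled libraries. Levels are CPM, counts scaled to a common library size and corrected by the trimmed mean of M-values (TMM).

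The targeted gene went against the labels. Tfam had 63.1, 63.5 and 61.4 CPM in KspCre Tfam f/f-labelled libraries, against 30.3, 33.6 and 23.2 CPM in Tfam f/f-labelled libraries. It was thus 2.15-fold higher where the labels place the Cre (log2 fold change 1.11, SE 0.14; edgeR quasi-likelihood test, adjusted p = 0.00107). The names of the deposited files also disagree with the labels, so each direction below may be the reverse of the difference between the genotypes. Whether labels were exchanged was not tested. Directions are given between libraries as labelled, and none can be read as an effect of deleting Tfam. Over all genes, 46.2% of the 17308 tested passed an adjusted p under 0.05 in that test. These were 3690 genes higher in KspCre Tfam f/f-labelled libraries (21.3%) and 4310 lower (24.9%), and the call "passed" below always refers to this test. Leaving out 1 of the KspCre Tfam f/f-labelled libraries brought the higher calls to 2321, 2276 and 2299 for replicates 1, 2 and 3, and leaving out replicate 2 or 3 brought the lower calls to 2822 and 2873.

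Markers of kidney cell types were present in all 6 libraries, and most lists, though not all, differed between the labelled groups. The counts below stand beside 21.3% of all genes called higher and 24.9% called lower. Of 16 proximal tubule markers, 10 were higher in KspCre Tfam f/f-labelled libraries and 0 lower. Their summed level was 25728 to 28405 CPM there, against 3740 to 15515 CPM in Tfam f/f-labelled libraries. Of 7 markers of the proximal straight segment 6 were higher, with summed levels of 3760 to 4120 CPM in KspCre Tfam f/f-labelled libraries, against 173 to 765 CPM in Tfam f/f-labelled libraries. Of 12 macrophage markers 11 were lower, with sums of 151 to 170 CPM in KspCre Tfam f/f-labelled libraries, against 219.5 to 704 CPM in Tfam f/f-labelled libraries. All 7 tubular injury markers were lower, with sums of 336 to 386 CPM in KspCre Tfam f/f-labelled libraries, against 1552 to 5022 CPM in Tfam f/f-labelled libraries. The count of 10 proximal tubule markers changed with a library left out. Without any 1 KspCre Tfam f/f-labelled library 3 were higher, and 1, 15 and 14 were higher without Tfam f/f replicate 1, 2 and 3. With no filter on low counts 3 were higher. An unadjusted p under 0.05 (edgeR) was reached by 13 of these markers with all libraries. It was reached by 11, 10 and 11 without KspCre Tfam f/f replicate 1, 2 and 3, and by 5, 16 and 15 without those labelled Tfam f/f. Further along the tubule, higher calls went to 3 of 5 thick ascending limb markers, 3 of 4 of the distal convoluted tubule and 4 of 5 of intercalated cells, which also had 1 lower, and in the glomerulus to 3 of 5 podocyte markers. Principal cells of the collecting duct had 0 higher and 2 lower of 5, with sums of 299.8 to 341 CPM in KspCre Tfam f/f-labelled libraries, against 181 to 438 CPM in Tfam f/f-labelled libraries. Of 5 endothelial markers 0 passed in edgeR, DESeq2 or voom, 1 had an unadjusted p under 0.05 in each of the 3, and all 5 passed without Tfam f/f replicate 2. Their sums were 231 to 239.9 CPM in KspCre Tfam f/f-labelled libraries, against 142 to 275 CPM in Tfam f/f-labelled libraries. Sums of both lists overlapped between the groups. The 3 distal convoluted tubule calls became 1 without any 1 KspCre Tfam f/f-labelled library, without Tfam f/f replicate 1 and with total-count scaling, as the podocyte calls did with that scaling. Lower principal cell calls numbered 1 without KspCre Tfam f/f replicate 2 or 3 or Tfam f/f replicate 1, and thick ascending limb calls 5 without Tfam f/f replicate 2. In none of these lists was a marker at 0 throughout a group. The part that such differences in tissue makeup play in the values of the peroxisomal genes was not tested. In bulk tissue, fewer cells of a type and less RNA per cell cannot be told apart.

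Peroxisomes are small organelles bounded by a single membrane. They shorten very long and branched fatty acids by beta-oxidation and alpha-oxidation, make the first intermediates of ether lipids, and hold oxidases that release hydrogen peroxide together with the catalase that removes it. Proximal tubule cells of the kidney are rich in them, and nuclear receptors of the PPAR family control many of their enzymes in rodents. The Pex proteins, or peroxins, insert membrane proteins, bring enzymes into the matrix and divide the organelle.

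The sequences shown first are promoters of the members that stood at the ends of the fold changes: Agps and Nudt19, among the 3 enzymes with the largest positive values, Pex13, the assembly gene with the largest, and Paox, the one member called lower. Each covers 300 bases, from 250 before to 50 after an annotated start in RefSeq on GRCm38.p6, printed 5′ to 3′ on the strand of the gene. Agps lies at chr2:75831927-75832226 on the plus strand, Nudt19 at chr7:35555879-35556178 on the minus strand, Pex13 at chr11:23665834-23666133 on the minus strand, and Paox at chr7:140125407-140125706 on the plus strand. Capitals mark exact matches, on either strand, to the GC box GGGCGG, the CCAAT box and the cAMP response element TGACGTCA. Paox has a second start close by, and the first by coordinate is shown.
Agps: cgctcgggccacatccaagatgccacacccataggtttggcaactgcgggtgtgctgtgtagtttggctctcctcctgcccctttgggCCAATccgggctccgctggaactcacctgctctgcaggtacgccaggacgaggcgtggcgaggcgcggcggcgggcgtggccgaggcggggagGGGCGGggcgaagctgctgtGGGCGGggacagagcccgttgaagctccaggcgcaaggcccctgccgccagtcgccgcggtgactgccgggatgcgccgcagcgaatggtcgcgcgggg
Nudt19: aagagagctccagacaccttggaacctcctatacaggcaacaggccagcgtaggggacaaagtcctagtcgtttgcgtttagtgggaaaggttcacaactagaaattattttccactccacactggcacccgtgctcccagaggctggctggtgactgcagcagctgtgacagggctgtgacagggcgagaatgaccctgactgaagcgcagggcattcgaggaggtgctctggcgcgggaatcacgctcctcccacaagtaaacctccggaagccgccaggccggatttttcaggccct
Pex13: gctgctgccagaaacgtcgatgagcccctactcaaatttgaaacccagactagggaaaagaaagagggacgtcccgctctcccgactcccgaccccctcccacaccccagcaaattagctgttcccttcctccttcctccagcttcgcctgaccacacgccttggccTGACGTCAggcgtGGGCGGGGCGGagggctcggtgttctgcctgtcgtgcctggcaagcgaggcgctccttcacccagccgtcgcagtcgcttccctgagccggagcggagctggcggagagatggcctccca
Paox: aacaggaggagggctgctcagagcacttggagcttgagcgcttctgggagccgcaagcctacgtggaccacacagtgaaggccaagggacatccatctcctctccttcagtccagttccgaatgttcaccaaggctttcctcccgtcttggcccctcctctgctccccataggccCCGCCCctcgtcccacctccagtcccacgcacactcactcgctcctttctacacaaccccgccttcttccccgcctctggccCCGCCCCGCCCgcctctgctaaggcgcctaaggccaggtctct
The Agps window held 2 GC boxes and a CCAAT box. The Pex13 window held a cAMP response element and 2 GC boxes that overlap each other, and the Paox window held 3 GC boxes, 2 of them overlapping, all on the opposite strand. The Nudt19 window held none of the motifs searched.

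Over the members as a whole, 29 of the 33 had a promoter in the RefSeq table, with 35 promoters between them, 13 of assembly genes and 22 of enzyme genes. Amacr, Pex2, Pex19 and Hsd17b4 were not matched. The GC box stood in 69.2% of the assembly promoters and 59.1% of the enzyme promoters, against 35.7% of all 32851 promoters. Median GC content was 57.3% in assembly promoters and 58.2% in enzyme promoters, against 52.7% in all promoters. The nuclear receptor half-site AGGTCA was found in 0% of assembly promoters, in 13.6% of enzyme promoters (those of Cat, Phyh and Scp2) and in 16.3% of all. The DR1 element, a pair of half-sites AGGNCA 1 base apart of the kind PPAR dimers bind, was in none of the 35 windows and in 0.381% of all promoters. The CCAAT box was in 30.8%, 36.4% and 37.4% of assembly, enzyme and all promoters. The TATA box TATAAA was in 23.1% of assembly promoters and 0% of enzyme promoters, against 13.6% of all. The cAMP response element was in the Pex13 window only, or 7.69% of assembly promoters, against 1.79% of all. Both strands were searched, a longer element can contain a half-site, and the motifs were chosen after these promoters had been looked at. A match is a run of letters and not a measured binding site.

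Among the members, enzyme genes stood further apart between the labelled groups than assembly genes did. Of the 33 members, 23 were higher in KspCre Tfam f/f-labelled libraries, 1 was lower and 9 did not pass. For all genes tested, the shares were 21.3% higher and 24.9% lower. The groups did not overlap for 29 members on the higher side, against 29.8% of all genes, and for 1 on the lower side, against 32.1%. The median log2 fold change was 0.59 over the members and -0.03 over all genes tested. Among the 12 assembly genes, 8 were higher, 0 lower and 4 did not pass, with a median of 0.50 and values between -0.08 and 0.77. Among the 21 enzyme genes, 15 were higher, 1 lower and 5 did not pass, with a median of 1.0 and values between -1.10 and 2.44. No assembly gene reached a log2 fold change of 1, whereas 10 of 21 enzyme genes exceeded 1 and 4 exceeded 2. The share of all genes tested beyond these values was not counted. Without KspCre Tfam f/f replicate 1 or replicate 2, 15 members were called higher. Called higher without KspCre Tfam f/f replicate 1, 2 and 3 were 4, 4 and 5 assembly genes.

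**Figure D1:**
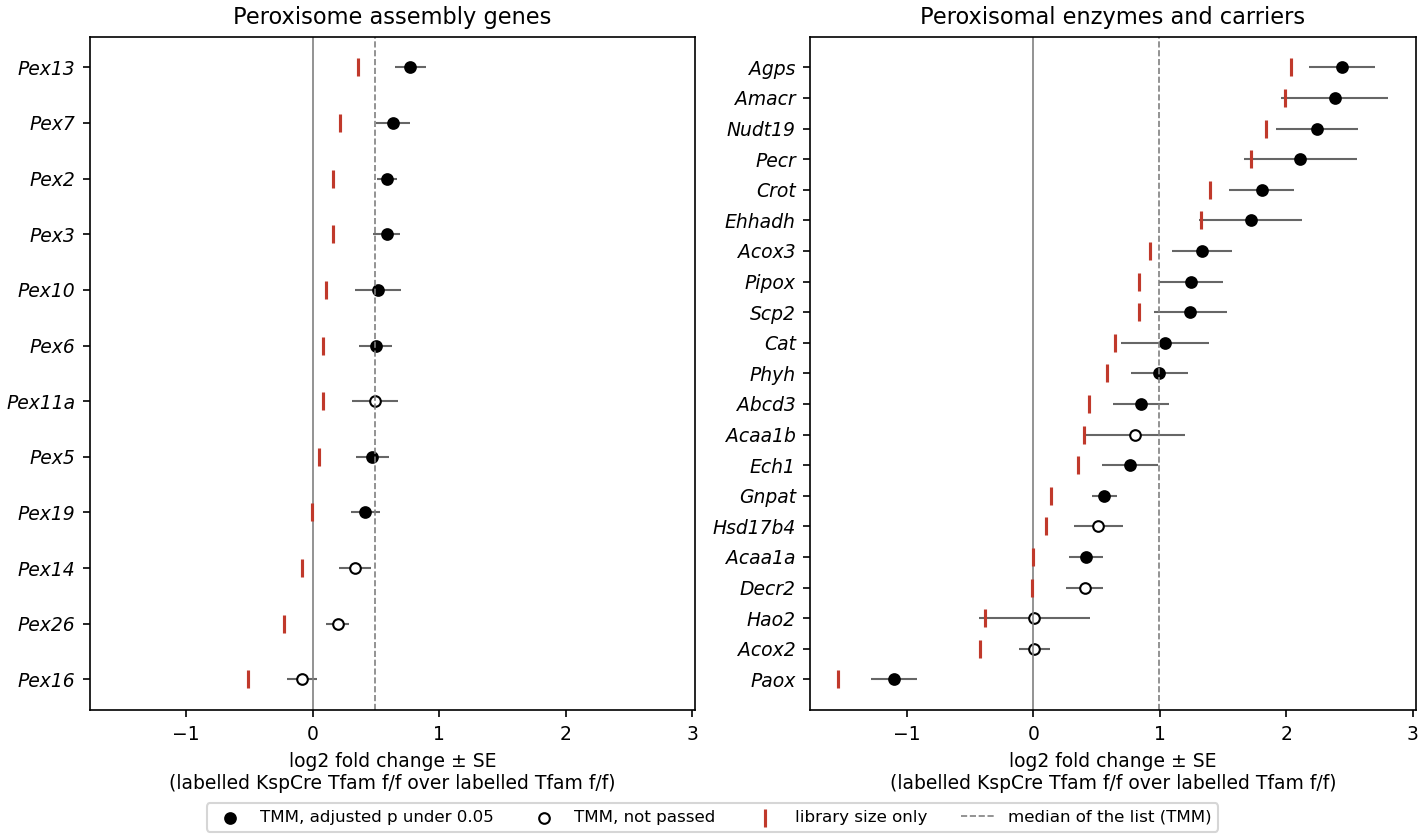
Log2 fold change of each of the 33 members, KspCre Tfam f/f-labelled over Tfam f/f-labelled libraries, with its SE; filled points passed an adjusted p under 0.05, red ticks give the value under total-count scaling and dashed lines the median of each list. Assembly genes lie between -0.08 and 0.77, and enzyme genes between -1.10 (Paox) and 2.44 (Agps).

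How far the assembly genes stood from 0 depended on the scaling. With libraries scaled by their total gene counts alone, the median of all genes moved by -0.43 on the log2 scale. Under that scaling 8 of 12 assembly genes had a positive value, their median was 0.08, and 1 was called higher and 1 lower, which was Pex16. Of the enzyme genes, 16 of 21 kept a positive value, with a median of 0.59, 10 calls higher and 2 lower. Enzyme genes that lost a higher call were Cat, Abcd3, Ech1, Gnpat and Acaa1a, and the lower calls were Paox and Acox2. Among all genes, 46.1% of calls were on the higher side under TMM and 16.5% under total counts. Measured from the median of all genes, the assembly median was 0.52 under TMM and 0.53 under total counts, and the enzyme median was 1.03 and 1.04. A change of scaling moves all genes by nearly the same amount, so these distances could hardly differ between the scalings.

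Shares of the gene counts are the same total-count scaling read library by library. On that scale the labelled groups stood apart for the enzyme genes and overlapped for the assembly genes. Enzyme members took 0.95%, 0.936% and 0.976% of gene counts in KspCre Tfam f/f-labelled libraries, against 0.592%, 0.660% and 0.353% in Tfam f/f-labelled libraries. The groups did not overlap. Assembly members took 0.0650%, 0.0666% and 0.0652% in KspCre Tfam f/f-labelled libraries, against 0.0683%, 0.0637% and 0.0587% in Tfam f/f-labelled libraries. These shares overlapped, with the highest and the lowest share both in Tfam f/f-labelled libraries. The widest exact 95% binomial interval of an assembly share, that of Tfam f/f replicate 3, was 0.0576% to 0.0598%, which covers counting error only.

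The spread between the 2 lists was also read within each library. The mean log2 CPM of the enzyme genes exceeded that of the assembly genes by 2.69, 2.66 and 2.70 in KspCre Tfam f/f-labelled libraries, against 2.12, 2.31 and 1.65 in Tfam f/f-labelled libraries. This gap needs no scaling between libraries, and it was larger in each KspCre Tfam f/f-labelled library. The mean gap was 2.68 ± 0.02 in KspCre Tfam f/f-labelled libraries and 2.03 ± 0.34 in Tfam f/f-labelled libraries (SD, n = 3 each). The difference between the lists' median fold changes was 0.50, and it lay between 0.38 and 0.60 with each library left out.

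**Figure D2:**
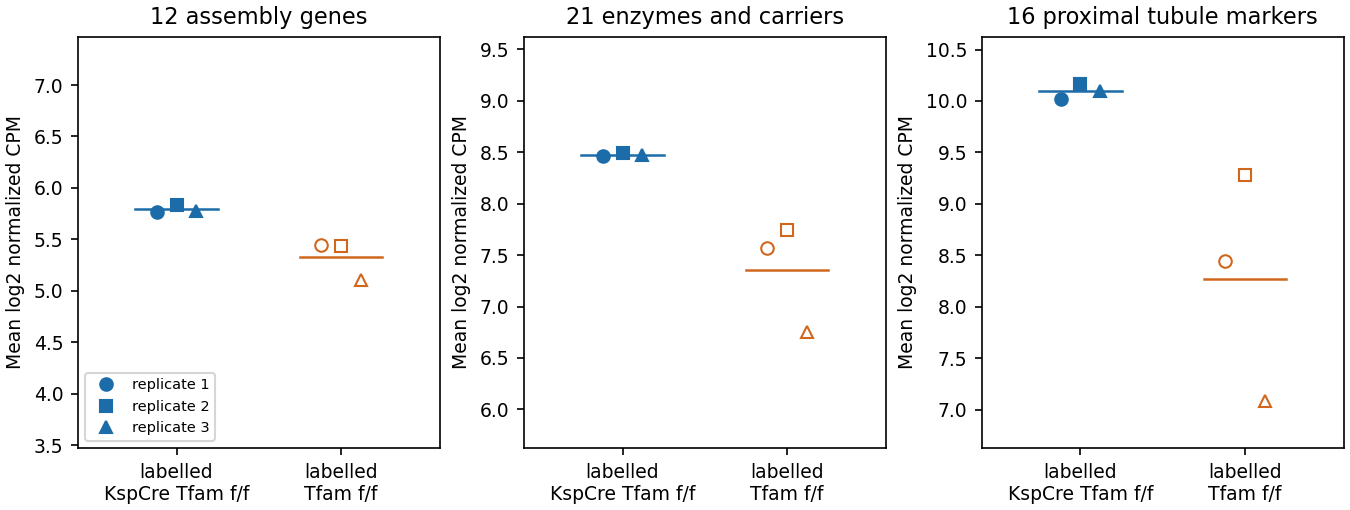
Mean log2 normalized CPM of the assembly members, the enzyme members and the proximal tubule markers, 1 symbol per library, with the group mean as a line; the 3 vertical axes have the same span. KspCre Tfam f/f-labelled libraries lie close together on each list, and Tfam f/f replicate 3 is the lowest library on all 3.

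Among the assembly genes, the receptors and the docking proteins come first in the path of an enzyme into the peroxisome. Pex5, which binds the common type of targeting signal, had 95.3, 105 and 100.3 CPM in KspCre Tfam f/f-labelled libraries, against 78.5, 79.7 and 58.8 CPM in Tfam f/f-labelled libraries (log2 fold change 0.47, SE 0.13). Pex7, the receptor for the rarer signal carried by the proteins of Agps, Phyh, Acaa1a and Acaa1b, had 70.1, 72.7 and 74.6 CPM in KspCre Tfam f/f-labelled libraries, against 51.2, 51.7 and 37.1 CPM in Tfam f/f-labelled libraries. Its fold change was 1.55 (log2 0.63, SE 0.14), and it lies at chr10:19853900-19907689 on the minus strand of GRCm38. The groups did not overlap for either receptor, and replicate 3 of Tfam f/f-labelled libraries was the lowest for both.

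Pex13, part of the docking complex in the membrane, was the assembly gene with the largest value. It had 55.8, 53.9 and 52.2 CPM in KspCre Tfam f/f-labelled libraries, against 32.2, 35.9 and 26.5 CPM in Tfam f/f-labelled libraries, which is 1.71-fold (log2 0.77, SE 0.12). All 3 libraries of one label lay above all 3 of the other, and the call stood with each library left out and with total-count scaling. Its partner Pex14 had 49.1, 53.0 and 54.8 CPM in KspCre Tfam f/f-labelled libraries, against 47.4, 42.6 and 34.2 CPM in Tfam f/f-labelled libraries, and did not pass (log2 0.34, SE 0.13). Of the exonic length of Pex14, 28.3% is overlapped on the other strand by Gm17029, whose reads cannot be told apart unless the counting used strand, and which itself had 3.31 to 5.0 CPM in KspCre Tfam f/f-labelled libraries, against 4.36 to 6.02 CPM in Tfam f/f-labelled libraries.

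Pex2 and Pex10 code for subunits of the ubiquitin ligase that recycles the receptors, and Pex2 lies at chr3:5560188-5576239 on the minus strand of GRCm38. Pex2 had 65.3, 68.1 and 63.0 CPM in KspCre Tfam f/f-labelled libraries, against 44.1, 43.9 and 42.8 CPM in Tfam f/f-labelled libraries. It was 1.5-fold higher (log2 0.59, SE 0.08), with no overlap of the groups, and its SE was the smallest of the assembly genes. Pex10 had 15.6 to 16.8 CPM in KspCre Tfam f/f-labelled libraries, against 8.23 to 13.3 CPM in Tfam f/f-labelled libraries (log2 0.52, SE 0.18), and its call was lost without any 1 KspCre Tfam f/f-labelled library and without Tfam f/f replicate 1. Pex6, an ATPase that pulls the receptors out of the membrane, had 65.9 to 76.6 CPM in KspCre Tfam f/f-labelled libraries, against 41.7 to 55.6 CPM in Tfam f/f-labelled libraries (log2 0.50, SE 0.13). The membrane anchor of that ATPase, Pex26, had 31.7 to 33.6 CPM in KspCre Tfam f/f-labelled libraries, against 26.4 to 30.8 CPM in Tfam f/f-labelled libraries, and did not pass (log2 0.20, SE 0.09). For Pex10, Pex6 and Pex26 the groups did not overlap either.

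Pex3, Pex16 and Pex19 together insert proteins into the peroxisomal membrane, and their values differed. Pex3, the docking site in the membrane, had 45.5 to 49.9 CPM in KspCre Tfam f/f-labelled libraries, against 28.1 to 35.2 CPM in Tfam f/f-labelled libraries (log2 0.58, SE 0.11). Pex19, the chaperone that carries the proteins there, had 134 to 137 CPM in KspCre Tfam f/f-labelled libraries, against 88.0 to 112 CPM in Tfam f/f-labelled libraries (log2 0.41, SE 0.12). Pex16, at chr2:92374676-92381217 on the plus strand of GRCm38, codes for a receptor for Pex3 and was the only assembly gene with a negative value. It had 29.9, 35.6 and 30.4 CPM in KspCre Tfam f/f-labelled libraries, against 38.1, 30.3 and 33.4 CPM in Tfam f/f-labelled libraries, so the groups overlapped (log2 -0.08, SE 0.12). Of the exonic length of Pex16, 7.15% is overlapped on the other strand by Large2, listed in the count data as Gyltl1b, which had 29.0 to 31.0 CPM in KspCre Tfam f/f-labelled libraries, against 46.7 to 59.1 CPM in Tfam f/f-labelled libraries. Pex11a, which elongates the membrane before division, had 74.7, 84.9 and 82.0 CPM in KspCre Tfam f/f-labelled libraries, against 69.9, 60.6 and 41.0 CPM in Tfam f/f-labelled libraries, and did not pass (log2 0.49, SE 0.18).

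**Figure D3:**
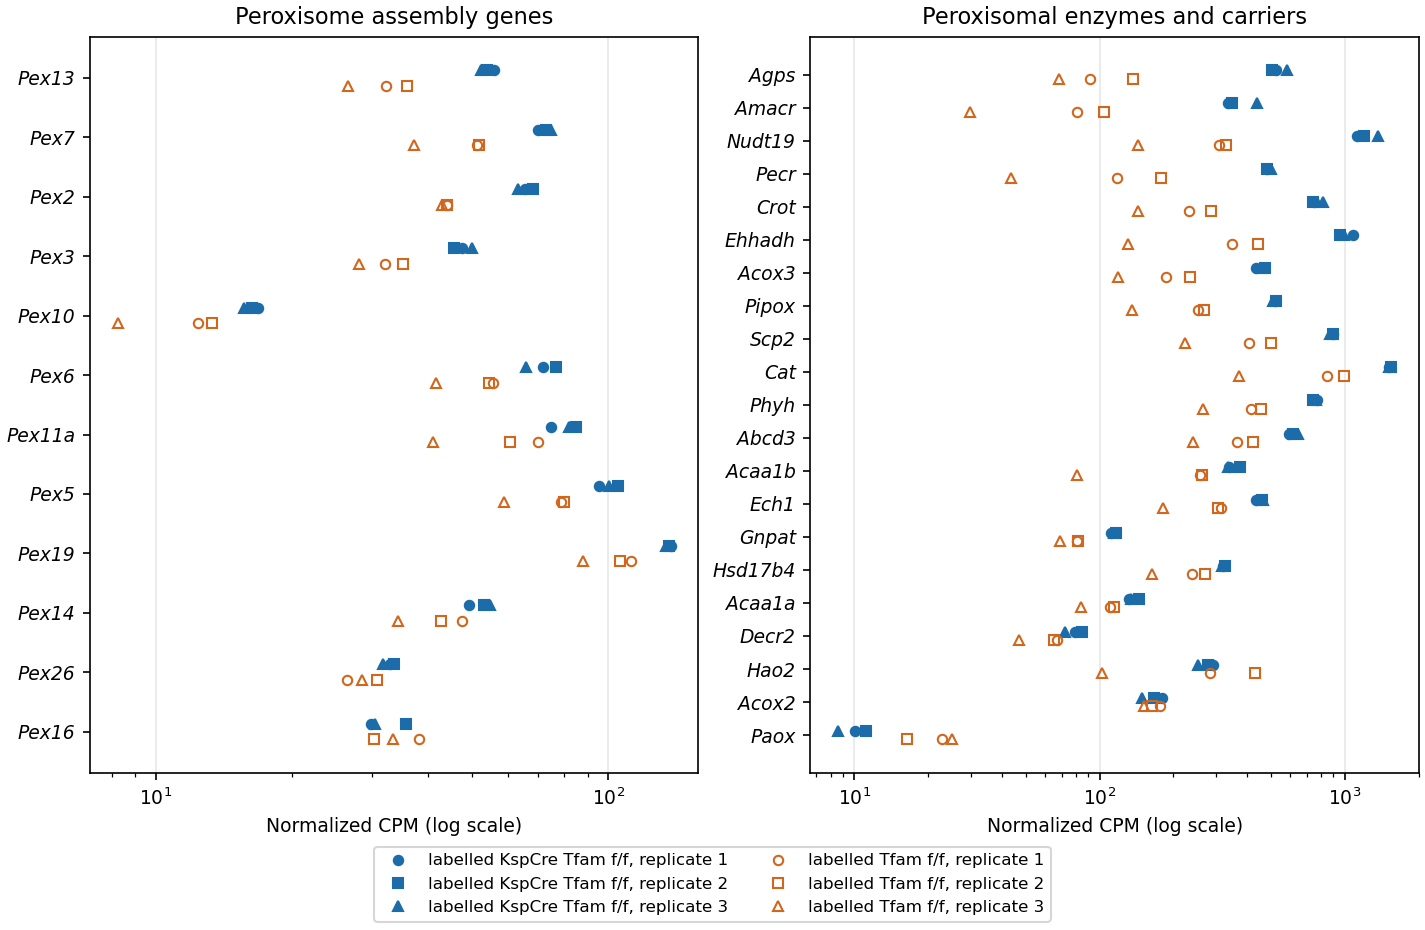
Normalized CPM of each member in each of the 6 libraries on a log axis, with filled blue symbols for KspCre Tfam f/f-labelled libraries, open orange symbols for Tfam f/f-labelled ones, and a shape per replicate. The Tfam f/f triangle, replicate 3, is the lowest of its group for 10 of 12 assembly genes and 20 of 21 enzyme genes.

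The core enzymes of peroxisomal beta-oxidation did not differ to the same degree. Acyl-CoA oxidases take the first step and release hydrogen peroxide. Acox3, which acts on branched chains, had 434, 474 and 456 CPM in KspCre Tfam f/f-labelled libraries, against 188, 234 and 119 CPM in Tfam f/f-labelled libraries (2.52-fold; log2 1.33, SE 0.24). Acox2, which acts on bile acid intermediates, had 179.8, 166 and 149.7 CPM in KspCre Tfam f/f-labelled libraries, against 177, 164 and 152 CPM in Tfam f/f-labelled libraries. Its groups overlapped throughout, with a log2 fold change of 0.01 (SE 0.12).

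The next steps, hydration and dehydrogenation, are done by 2 bifunctional proteins. Ehhadh codes for the L-type protein, a classic PPAR alpha target, and had 1085, 959 and 992 CPM in KspCre Tfam f/f-labelled libraries, against 349, 444 and 131 CPM in Tfam f/f-labelled libraries (3.29-fold; log2 1.72, SE 0.40). Hsd17b4 codes for the D-type protein and had 320.2, 326 and 316 CPM in KspCre Tfam f/f-labelled libraries, against 238, 270.2 and 164 CPM in Tfam f/f-labelled libraries (1.43-fold; log2 0.52, SE 0.19). The groups did not overlap for either gene, although Hsd17b4 did not pass.

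Thiolases make the final cut. Scp2, which codes for a thiolase and a sterol carrier protein, had 892, 900.0 and 875 CPM in KspCre Tfam f/f-labelled libraries, against 406, 499 and 222 CPM in Tfam f/f-labelled libraries (2.36-fold; log2 1.24, SE 0.29). Acaa1a had 132 to 145 CPM in KspCre Tfam f/f-labelled libraries, against 84.1 to 114 CPM in Tfam f/f-labelled libraries (log2 0.42, SE 0.14). Its near copy Acaa1b had 333 to 373 CPM in KspCre Tfam f/f-labelled libraries, against 81.1 to 262 CPM in Tfam f/f-labelled libraries, and did not pass (log2 0.80, SE 0.40). These 3 genes are uncertain in their counting. Of all stretches of 150 bases, the read length, 12.7% in Acaa1a and 18.2% in Acaa1b also occur in another gene, and 22.8% in Scp2 also occur in a pseudogene, Scp2-ps2. In addition, 11.4% of the exonic length of Acaa1b is overlapped on the other strand by Dlec1.

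Amacr, Ech1 and Decr2 code for auxiliary enzymes that prepare fatty acids whose double bonds or branches block beta-oxidation. Amacr, at chr15:10981756-10996626 on the plus strand of GRCm38, codes for the racemase that turns branched acyl-CoA into the form the oxidases accept, and had 335, 346 and 441 CPM in KspCre Tfam f/f-labelled libraries, against 81.2, 104 and 29.7 CPM in Tfam f/f-labelled libraries. That is 5.22-fold (log2 2.38, SE 0.42), the second largest value of the members after Agps. Pecr, a reductase of trans-2-enoyl-CoA, had 480.2, 482 and 501 CPM in KspCre Tfam f/f-labelled libraries, against 117, 177 and 43.5 CPM in Tfam f/f-labelled libraries (4.32-fold; log2 2.11, SE 0.45), a call lost with no filter on low counts (edgeR, adjusted p = 0.0523). Of the exonic length of Pecr, 11.5% is overlapped on the other strand by D230017M19Rik. For both genes the lowest KspCre Tfam f/f-labelled library lay above the highest labelled Tfam f/f. Ech1, an isomerase of dienoyl-CoA, had 435 to 463 CPM in KspCre Tfam f/f-labelled libraries, against 182 to 313 CPM in Tfam f/f-labelled libraries (log2 0.77, SE 0.22), and Decr2, a reductase of dienoyl-CoA, had 72.4 to 85.2 CPM in KspCre Tfam f/f-labelled libraries, against 47.0 to 66.9 CPM in Tfam f/f-labelled libraries, and did not pass (log2 0.41, SE 0.15).

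Abcd3, Crot and Nudt19, whose proteins act on acyl-CoA or coenzyme A, were all higher in KspCre Tfam f/f-labelled libraries. Abcd3, a transporter of branched acyl-CoA across the peroxisomal membrane, had 594, 614 and 644 CPM there, against 363, 422 and 240.1 CPM in Tfam f/f-labelled libraries (log2 0.85, SE 0.22). Crot, which attaches carnitine to shortened chains for export, had 749, 743 and 816 CPM in KspCre Tfam f/f-labelled libraries, against 231, 285 and 143 CPM in Tfam f/f-labelled libraries (3.50-fold; log2 1.81, SE 0.26). Nudt19, a hydrolase of coenzyme A that is abundant in mouse kidney peroxisomes, had 1124, 1202 and 1371 CPM in KspCre Tfam f/f-labelled libraries, against 308, 329 and 144 CPM in Tfam f/f-labelled libraries (4.74-fold; log2 2.24, SE 0.32). The groups did not overlap for any of the 3. Of the exonic length of Nudt19, 35.0% is overlapped on the other strand by B230322F03Rik, which itself had 0.572 to 1.01 CPM in KspCre Tfam f/f-labelled libraries, against 0.504 to 0.580 CPM in Tfam f/f-labelled libraries.

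Ether lipid synthesis gave the largest fold of the members beside one of the smaller ones. Gnpat, which starts the pathway by adding an acyl group to dihydroxyacetone phosphate, had 111, 116 and 115 CPM in KspCre Tfam f/f-labelled libraries, against 80.6, 81.8 and 69.2 CPM in Tfam f/f-labelled libraries (1.48-fold; log2 0.56, SE 0.10). Of its exonic length, 7.81% is overlapped on the same strand by Gm16163. Agps, which replaces that acyl group with a fatty alcohol and so forms the ether bond, had 525, 504 and 580.2 CPM in KspCre Tfam f/f-labelled libraries, against 91.3, 137 and 68.1 CPM in Tfam f/f-labelled libraries (5.44-fold; log2 2.44, SE 0.26). The 2 enzymes act one after the other, and both were called with each library left out. For both, all 3 KspCre Tfam f/f-labelled libraries lay above all 3 labelled Tfam f/f.

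Oxidases and catalase held members with values on both sides of 0. Cat, the catalase, had 1512, 1546 and 1509 CPM in KspCre Tfam f/f-labelled libraries, against 848, 997 and 371 CPM in Tfam f/f-labelled libraries (2.06-fold; log2 1.04, SE 0.35). Pipox, which oxidises pipecolic acid and sarcosine, had 518, 523 and 511 CPM in KspCre Tfam f/f-labelled libraries, against 253, 267 and 136 CPM in Tfam f/f-labelled libraries (2.37-fold; log2 1.24, SE 0.25). For Cat and Pipox all 3 KspCre Tfam f/f-labelled libraries lay above the others. Hao2, an oxidase of long-chain 2-hydroxy acids known from rodent kidney, had 290.1, 277 and 252 CPM in KspCre Tfam f/f-labelled libraries, against 282, 429 and 103 CPM in Tfam f/f-labelled libraries. Its group means nearly coincided (log2 0.01, SE 0.44), its Tfam f/f-labelled libraries lay on both sides of the others, and without replicate 3 of them the value was -0.38.

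Paox, which oxidises acetylated polyamines, was the 1 member called lower. It had 10.1, 11.1 and 8.58 CPM in KspCre Tfam f/f-labelled libraries, against 22.8, 16.4 and 25.1 CPM in Tfam f/f-labelled libraries (0.466-fold; log2 -1.10, SE 0.18). Every KspCre Tfam f/f-labelled library lay below every one labelled Tfam f/f, and the call stood with each library left out. Of its stretches of 150 bases 23.5% also occur in a processed pseudogene, Gm19680, which had at most 0.462 CPM in any library. Phyh, which takes the first step of alpha-oxidation of phytanic acid, had 768, 740.3 and 763 CPM in KspCre Tfam f/f-labelled libraries, against 415, 457 and 265 CPM in Tfam f/f-labelled libraries (2.00-fold; log2 1.0, SE 0.22).

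Levels can be set against each other between genes once divided by exonic length. Cat was the highest member in both labelled groups, at 583 CPM per kilobase in KspCre Tfam f/f-labelled libraries and 283 in Tfam f/f-labelled libraries. Nudt19 ranked 2 of 33 in KspCre Tfam f/f-labelled libraries, with 459.8 CPM per kilobase, and 8 in Tfam f/f-labelled libraries, with 97.1. Hao2 ranked 12 in KspCre Tfam f/f-labelled libraries, with 133 CPM per kilobase, and 3 in Tfam f/f-labelled libraries, with 132. Agps ranked 15 in KspCre Tfam f/f-labelled libraries, with 56.9 CPM per kilobase, and 26 in Tfam f/f-labelled libraries, with 10.5. Paox ranked 33 in KspCre Tfam f/f-labelled libraries, with 2.03 CPM per kilobase, and 31 in Tfam f/f-labelled libraries, with 4.36, so that the 1 member called lower was also among the least abundant. Exonic length here is that of all annotated exons joined, which can exceed the transcript in use.

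**Figure D4:**
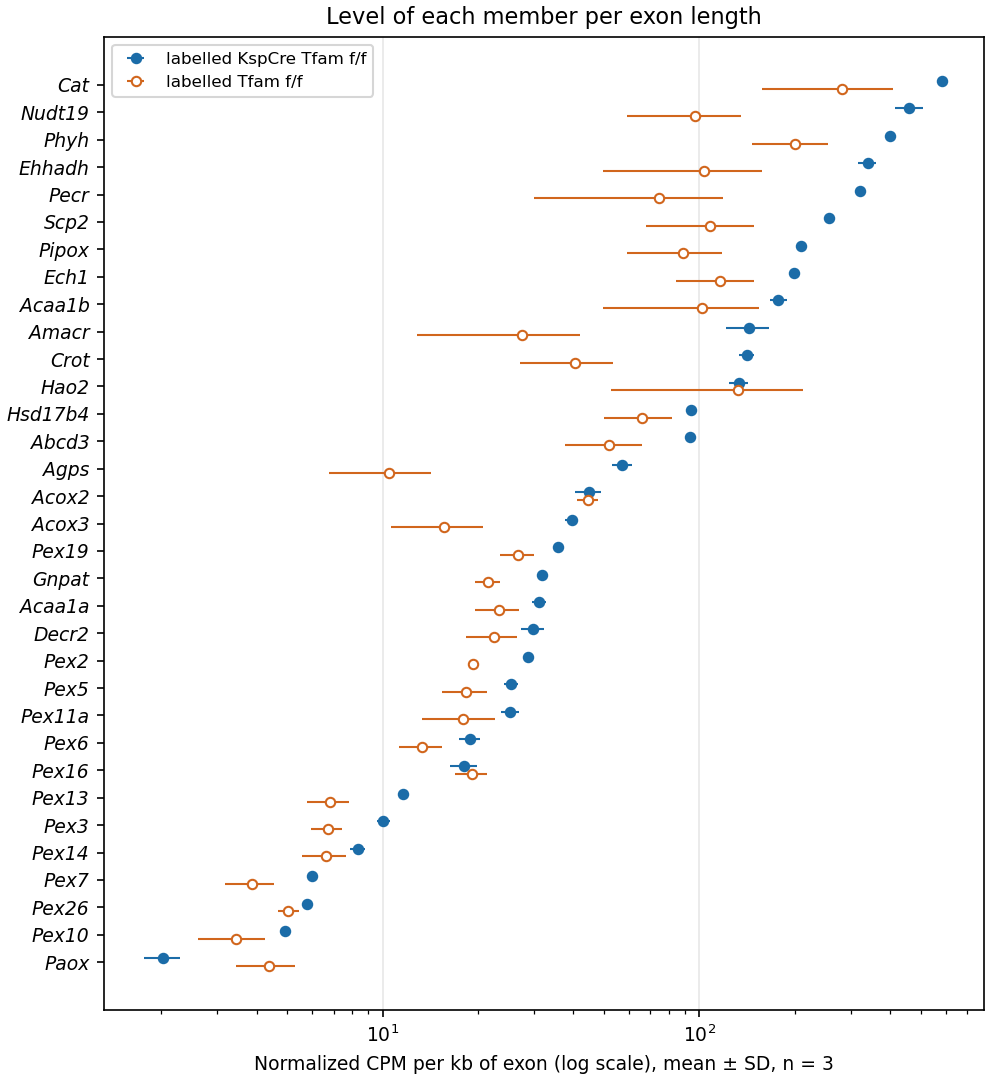
Mean CPM per kilobase of exon of each member in KspCre Tfam f/f-labelled libraries and in Tfam f/f-labelled libraries, on a log axis, with bars of 1 SD over 3 libraries each. Cat is highest in both groups, at 583 CPM per kilobase in KspCre Tfam f/f-labelled libraries and 283 in Tfam f/f-labelled libraries, and Paox is among the lowest, at 2.03 in KspCre Tfam f/f-labelled libraries and 4.36 in Tfam f/f-labelled libraries.

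Members varied more among Tfam f/f-labelled libraries than among KspCre Tfam f/f-labelled libraries. The median coefficient of variation of the enzyme genes was 5.0% in KspCre Tfam f/f-labelled libraries and 32.6% in Tfam f/f-labelled libraries. For assembly genes it was 4.23% in KspCre Tfam f/f-labelled libraries and 15.1% in Tfam f/f-labelled libraries. For all genes tested it was 7.22% in KspCre Tfam f/f-labelled libraries and 18% in Tfam f/f-labelled libraries. Replicate 3 was the lowest of Tfam f/f-labelled libraries for 20 of 21 enzyme genes and 10 of 12 assembly genes, against 35.6% of all genes. Within that label, the median ratio of replicate 2 to replicate 3 was 1.97 for enzyme genes, 1.28 for assembly genes and 0.995 for all genes. The pattern was stronger in the proximal tubule markers, of which 16 of 16 were lowest in that replicate 3. Their median ratio was 4.90, and their median coefficient of variation 5.90% in KspCre Tfam f/f-labelled libraries and 65.3% in Tfam f/f-labelled libraries. The same replicate 3 had the lowest sum of proximal tubule markers, 3740 CPM, and the highest sums of macrophage markers, 704 CPM, and injury markers, 5022 CPM.

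Set against the proximal tubule markers, most members differed less between the labels. The median log2 fold change of the 16 markers was 1.49. Of the 21 enzyme genes 6 lay above it (Agps, Amacr, Nudt19, Pecr, Crot and Ehhadh), and of the 12 assembly genes 0 did. The mean log2 CPM of the enzyme genes less that of the markers was -1.55, -1.68 and -1.62 in KspCre Tfam f/f-labelled libraries, against -0.88, -1.53 and -0.33 in Tfam f/f-labelled libraries. Relative to these markers, then, the enzyme genes were higher in each Tfam f/f-labelled library, with replicate 2 close to the other label. Markers of liver and fat, tissues with peroxisomes of their own, were read as well. Hepatocyte markers summed to 122 to 162 CPM in KspCre Tfam f/f-labelled libraries, against 93.3 to 230.1 CPM in Tfam f/f-labelled libraries, with 3 higher and 2 lower of 7 tested. Adipocyte markers summed to 3.19 to 8.81 CPM in KspCre Tfam f/f-labelled libraries, against 18.3 to 39.4 CPM in Tfam f/f-labelled libraries, with 2 of 4 lower. Lower calls numbered 1 for hepatocyte markers without any 1 KspCre Tfam f/f-labelled library, and 1 for adipocyte markers without replicate 1 or 2 of either label.

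Peroxin and division genes outside the 33 were in part higher, with a median close to that of the assembly members. Of 10 tested in a list of 11, 6 were higher in KspCre Tfam f/f-labelled libraries, 0 lower and 4 did not pass, with a median log2 fold change of 0.48. Shares over all genes tested were 21.3% higher and 24.9% lower. Pex5l, a relative of Pex5 known mainly from brain, had 3.0 to 4.16 CPM in KspCre Tfam f/f-labelled libraries, against 0.210 to 0.421 CPM in Tfam f/f-labelled libraries (11.9-fold; log2 3.58, SE 0.32). Smaller values among the calls were those of Acbd4 and Acbd5, tethers to the endoplasmic reticulum, at log2 0.75 and 0.72, and of Pex11g at 0.43. Fis1, Mff and Dnm1l, which divide mitochondria as well as peroxisomes, were at 0.02, -0.06 and -0.01 and did not pass. The call of Pex11g was lost without KspCre Tfam f/f replicate 2 or 3 (adjusted p = 0.0646 and 0.0601, edgeR). The call of Acbd5 was lost without any 1 of those libraries or without Tfam f/f replicate 1 (adjusted p between 0.0541 and 0.0798). With total-count scaling 2 of the 10 were called higher and 3 lower.

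Other peroxisomal enzymes and transporters were mostly higher too. Of 39 tested in a list of 44, 25 were higher in KspCre Tfam f/f-labelled libraries, 1 lower and 13 did not pass, with a median log2 fold change of 0.58. Over all genes tested, the shares were 21.3% higher and 24.9% lower. This median lay below the 1.0 of the enzyme members and near the 0.48 of the peroxin and division genes outside the members. The wider distance of enzyme genes from assembly genes was thus seen mainly among the chosen members. Without KspCre Tfam f/f replicate 1, 2 or 3, 16, 15 and 16 were called higher. Far1 makes the fatty alcohols that the enzyme of Agps uses, and had 323, 274 and 337 CPM in KspCre Tfam f/f-labelled libraries, against 87.1, 156 and 94.7 CPM in Tfam f/f-labelled libraries (2.76-fold; log2 1.47, SE 0.23). It was thus higher together with Gnpat and Agps, the members on the same path. Mpv17l, a peroxisomal membrane protein, had 593 to 690.1 CPM in KspCre Tfam f/f-labelled libraries, against 56.5 to 184 CPM in Tfam f/f-labelled libraries (4.91-fold). Ephx2, the soluble epoxide hydrolase, had 602 to 634 CPM in KspCre Tfam f/f-labelled libraries, against 98.5 to 248 CPM in Tfam f/f-labelled libraries (3.24-fold).

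Acot6, an acyl-CoA thioesterase, was at log2 1.06 (SE 0.19), Mlycd, malonyl-CoA decarboxylase, at 0.95 (SE 0.16), and Ddo, the oxidase of D-aspartate, at 0.58 (SE 0.09). Abcd2, an acyl-CoA transporter, was the 1 lower call: 0.188, 0.217 and 0.382 CPM in KspCre Tfam f/f-labelled libraries, against 0.477, 1.58 and 0.797 CPM in Tfam f/f-labelled libraries (log2 -1.94, SE 0.52). That call was lost without KspCre Tfam f/f replicate 1 or 2 (edgeR, adjusted p = 0.0778 and 0.0769) and without Tfam f/f replicate 2 (adjusted p = 0.0505). Without Tfam f/f replicate 3, 2 genes of the list were called lower.

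Nuclear receptors known to control these enzymes were mixed. Of 10 tested in a list of 11, 5 were higher in KspCre Tfam f/f-labelled libraries, 1 lower and 4 did not pass, with a median log2 fold change of 0.44. All genes tested had 21.3% higher and 24.9% lower. Ppara, the receptor through which peroxisome proliferators act in rodents, had 79.8, 84.5 and 85.9 CPM in KspCre Tfam f/f-labelled libraries, against 34.2, 55.2 and 15.1 CPM in Tfam f/f-labelled libraries (2.38-fold; adjusted p = 0.0338, edgeR). Its partner Rxra was at log2 0.90 (SE 0.18), the bile acid receptor Nr1h4 at 0.93 (SE 0.22), the tubule regulator Hnf4a at 1.5 (SE 0.35) and the coactivator Ppargc1b at 0.49 (SE 0.17). Pparg was lower, with 1.86, 1.38 and 2.37 CPM in KspCre Tfam f/f-labelled libraries, against 3.01, 3.08 and 5.41 CPM in Tfam f/f-labelled libraries (log2 -1.04, SE 0.32). The coactivator Ppargc1a had 126 to 136 CPM in KspCre Tfam f/f-labelled libraries, against 119 to 153 CPM in Tfam f/f-labelled libraries, and did not pass (log2 -0.01, SE 0.13).

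Several of these calls were lost with a library left out. The call of Ppara was lost without any 1 KspCre Tfam f/f-labelled library or without Tfam f/f replicate 1 (edgeR, adjusted p between 0.0775 and 0.102), with no filter on low counts (adjusted p = 0.168) and with total-count scaling (adjusted p = 0.0637). That of Ppargc1b was lost in every such fit other than the one without Tfam f/f replicate 2 (edgeR, adjusted p between 0.0826 and 0.160), that of Hnf4a without Tfam f/f replicate 1 (adjusted p = 0.0501), and that of Pparg without KspCre Tfam f/f replicate 1 or 2 or Tfam f/f replicate 3 (adjusted p = 0.0876, 0.109 and 0.0544). The list had 3 genes called higher without any 1 KspCre Tfam f/f-labelled library, and 2 without Tfam f/f replicate 1.

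Targets of PPAR alpha outside the peroxisome did not share one direction. Of 22 tested in a list of 23, 5 were higher in KspCre Tfam f/f-labelled libraries, 6 lower and 11 did not pass, with a median log2 fold change of 0.14. That is 22.7% higher and 27.3% lower, close to the 21.3% and 24.9% of all genes tested. On the higher side were Cyp4a12a, an omega-hydroxylase of fatty acids (log2 3.4, SE 0.41), and the mitochondrial genes Acadm (1.79, SE 0.29), Cpt2 (0.76, SE 0.19), Cpt1a (0.75, SE 0.21) and Acadl (0.59, SE 0.16). On the lower side, Cyp4a14, of the same family as Cyp4a12a, had 49.5, 49.2 and 41.4 CPM in KspCre Tfam f/f-labelled libraries, against 435, 447 and 142 CPM in Tfam f/f-labelled libraries (log2 -2.87, SE 0.42). Acot2, a mitochondrial thioesterase, had 22.2 to 25.9 CPM in KspCre Tfam f/f-labelled libraries, against 78.7 to 94.9 CPM in Tfam f/f-labelled libraries (log2 -1.81, SE 0.11). Also lower were Fabp1 (log2 -3.35, SE 0.74), Ucp3 (-2.89, SE 0.48) and Pdk4 (-1.39, SE 0.35). Genes classed as targets of the same receptor thus stood on both sides, in shares close to those of all genes.

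Of these 11 calls, that of Pdk4 was lost without KspCre Tfam f/f replicate 1 (edgeR, adjusted p = 0.0522) and with no filter on low counts (adjusted p = 0.0840), those of Cpt2, Acadl and Cpt1a without KspCre Tfam f/f replicate 2 or 3 (adjusted p between 0.0508 and 0.0804), those of Acadl and Cpt1a without replicate 1 of that label (adjusted p = 0.0687 and 0.0632), and that of Cpt1a without Tfam f/f replicate 1 (adjusted p = 0.0702). Without KspCre Tfam f/f replicate 1, 2 and 3, higher calls numbered 3, 2 and 2.

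**Figure D5:**
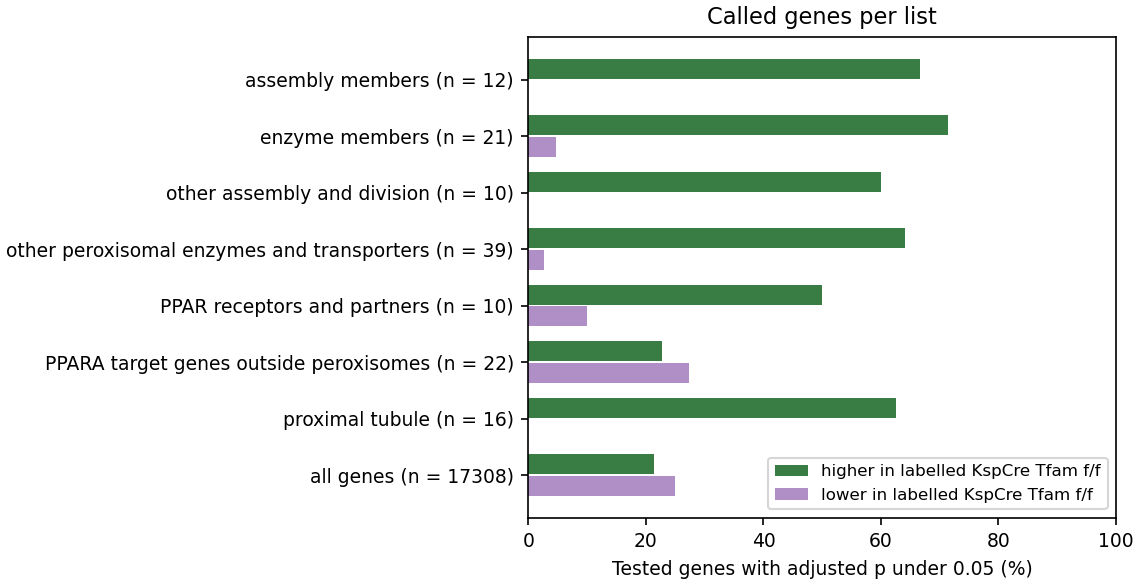
Percent of the tested genes of each list with an adjusted p under 0.05, higher or lower in KspCre Tfam f/f-labelled libraries. The bars for all 17308 genes stand at 21.3% higher and 24.9% lower, and the members' bars describe genes chosen on this contrast.

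How firmly each member's own call stood was read by leaving out each library in turn. In all 6 such fits, 4 assembly genes passed (Pex2, Pex3, Pex7 and Pex13) and 12 enzyme genes did (Acox3, Ehhadh, Scp2, Phyh, Amacr, Crot, Pipox, Paox, Agps, Gnpat, Pecr and Nudt19). The share of all genes tested that passed in all 6 was not counted, so these counts describe the members only. Calls of Pex5, Pex19 and Ech1 were lost without any 1 KspCre Tfam f/f-labelled library, and that of Pex6 without replicate 1 or 2 of them. Calls of Acaa1a, Cat and Abcd3, as of Pex10, were lost without any 1 of those libraries or without Tfam f/f replicate 1. By contrast, Pex11a, which did not pass with all libraries, did so without Tfam f/f replicate 1 or 3, Pex14 without replicate 1, Pex26 and Decr2 without replicate 2, Hsd17b4 without replicate 2 or 3, and Acaa1b without replicate 3. The value of Acaa1b ranged between log2 0.42 and 1.06 over these fits. Pex16, Acox2 and Hao2 passed in none of the 6.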

How the data were processed

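RNA from whole kidney was sequenced as strand-specific, poly A-selected libraries with paired reads of 150 bases, from samples with a RIN above 7 and at least 100 ng of RNA, per the labels' protocols. The deposited files hold raw counts per gene. The submitters' processing notes name FastQC, Trim Galore, STAR 2.4.1d, HTSeq 0.11.0 and the mm10 build, with no roles given. The strand setting of the counting is not given in the sources used here. Summary lines without a gene held 16.0% to 20.4% of all counts and stayed out of library sizes and tests.

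The members and gene lists were chosen with earlier results of these data known. Genes were filtered by edgeR 4.0.16 (filterByExpr, minimum count 10, minimum total 15), scaled by TMM and tested with its robust quasi-likelihood test on the group alone, with Benjamini-Hochberg adjustment over 17308 genes and a threshold of 0.05. The fit was tested on simulated data, where it called no changed gene in the wrong direction. In the simulation the fit recovered most of the large changes but missed most of the small ones. Only a small, randomly drawn part of the genes was changed there, against 46.2% called in these data, which makes the adjusted threshold stricter. The share missed therefore cannot be carried over to the members, but a gene that did not pass may still differ. A first criterion on the share recovered was not met and was replaced with that result known; the fit was not changed. Each SE was derived from that test, as the absolute log2 fold change divided by the square root of its F statistic. CPM use the TMM-scaled library sizes. All 33 members are named, and of each other list up to 6 called genes in each direction with the smallest p. Some genes of those lists are not reported here. The members treated as leading had the 3 largest positive and 3 largest negative values in each list, among genes with a mean of at least 4 CPM, and each list had 1 negative value. Positions come from the GENCODE annotation of GRCm38, the assembly of mm10, by gene ID without version, and promoters from RefSeq on GRCm38.p6.

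Alternatives were RLE, upper-quartile and total-count scaling, no filter and a filter at 1 CPM, DESeq2 1.42.0, limma 3.58.1 with voom, a replicate block, and each library left out. Shares of counts with each library left out were added after seeing the data. An exact permutation test of 3 against 3 libraries cannot go below p = 0.1, so none was used. No pair of libraries agreed within sampling noise: the chi-square per degree of freedom was 6.57 to 10.8 among KspCre Tfam f/f-labelled libraries and 57.5 to 149 among Tfam f/f-labelled ones.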

Additional observations from a re-analysis of the deposited data

How the results depend on the processing

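Most values kept their direction and their side of the threshold. Scaling and leaving out a library moved most of the rest, and the filter, the tool or the replicate block moved some calls. With total-count scaling, 1680 genes were called higher in KspCre Tfam f/f-labelled libraries and 8519 lower. The members then had 11 calls higher and 3 lower, assembly genes 1 higher and 1 lower, and enzyme genes 2 lower. Other assembly and division genes had 2 higher and 3 lower, other peroxisomal enzymes 14 and 4, PPAR receptors 3 and 4, and PPAR alpha targets 2 and 10. That scaling also turned the log2 values of Pex14 (-0.084), Pex19 (-0.0077), Pex26 (-0.23), Acaa1a (-0.0020), Decr2 (-0.011), Acox2 (-0.42, adjusted p = 0.0172 in edgeR) and Hao2 (-0.38). Acox2 and Hao2, both near 0, also turned with upper-quartile scaling (-0.067 and -0.055), without KspCre Tfam f/f replicate 1 (-0.047 and -0.028) and without Tfam f/f replicate 3 (-0.048 and -0.38), and Acox2 with the stricter filter (-0.00105) and voom (-6.64e-05). Over the fits that left out a library, Acox2 lay between -0.048 and 0.086, Hao2 between -0.38 and 0.52, and Pex16 between -0.16 and 0.025, positive without Tfam f/f replicate 1. With the stricter filter 0 of the other peroxisomal enzymes were called lower, since Abcd2 was not tested. With no filter on low counts Pecr, Ppara and Pdk4 lost their calls, and Hsd17b4 and Decr2 gained one (edgeR, adjusted p = 0.0458 and 0.0428). Pex10 lost its call with the stricter filter (edgeR, adjusted p = 0.0501) and with upper-quartile scaling, as Acaa1a and Ppargc1b did under that scaling. DESeq2 called Pex11a, Hsd17b4 and Decr2 in addition (adjusted p = 0.0428, 0.0229 and 0.0456), and voom called Hsd17b4 (adjusted p = 0.0471, limma) and did not call Ppargc1b (adjusted p = 0.0537, limma). The cause of the other shifts was not tested.

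With each library left out, genes called higher numbered 2276 to 4652 and lower 2822 to 4942. Members called higher numbered 15 to 26, assembly genes 4 to 9, other peroxisomal enzymes 15 to 28 (lower 0 to 2), PPAR receptors 2 to 6 (lower 0 to 1) and PPAR alpha targets 2 to 7. The gap between the enzyme and assembly medians stayed within 0.38 and 0.60. Mean shares of counts depended on the denominator. With summary lines included, enzyme members took 0.764% in KspCre Tfam f/f-labelled libraries, and assembly members 0.0525% there and 0.0527% in Tfam f/f-labelled libraries. With TMM-scaled sizes the same 3 shares were 1.11%, 0.0761% and 0.0551%.

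No pairing of the libraries by replicate number was seen, though 3 libraries per group are too few to decide it. Same-numbered libraries correlated at -0.174 to -0.070 in their deviations from the group means, and 0 of 6 correlated best with their own number. With the replicate number as a block, 3227 genes were called higher and 3586 lower, among them 23 members higher and 1 lower (assembly 8 and 0, enzymes 15 and 1). The members called were not the same: Acaa1a lost its call (adjusted p = 0.0521, edgeR) and Decr2 gained one (adjusted p = 0.0345, edgeR). Ppargc1b, outside the members, lost its call (adjusted p = 0.0766, edgeR).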
